A study of Mus musculus with 6 samples.

Results

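The receptor chains examined here bind cytokines of the IL-6, IL-7, IL-12 and IL-17 families. They were 10 genes chosen by name (Il6ra, Il6st, Il27ra, Il7r, Il4ra, Il21r, Il12rb1, Il12rb2, Il17ra and Il17re), of 18193 genes with a probe set of their own on the array, and each probe set that the platform annotation gave to such a gene alone was taken, which made 20 of 45037 non-control probe sets. A probe set is a group of short oligonucleotides on the array that together report a transcript. Of the 20, 19 passed the filter on low values, which asked for 2 or more of the 6 arrays to read above 5.48, the overall median. The remaining one was the only probe set of Il12rb2.

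All 3 populations were CD4 T cells on the BALB/c background, recovered from the same kind of host, BALB/c mice deficient in Rag1. Such mice make no T or B cells of their own but keep myeloid and natural killer cells. The hosts had been given wild-type natural regulatory T cells (nTreg) together with 500000 wild-type regulatory T cells induced in culture (iTreg), and per the labels' protocol such transfers went into mice with colitis. After 125 days, spleen and mesenteric lymph node cells of 14 mice were pooled and sorted on EGFP, the reporter of the Treg cell factor Foxp3, and on Thy1.1, which marks cells of induced origin. The ex-iTreg group (2 arrays) was Thy1.1-positive and EGFP-negative, the iTreg group (2 arrays) was positive for both, and the nTreg group (2 arrays) was EGFP-positive and Thy1.1-negative. Each array is called a pool; whether the 2 pools of a group held different mice is not given, so p-values measure only the spread between pools, which may be technical. As bulk populations, fewer cells making a transcript and less transcript per cell cannot be told apart.

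Receptors of the IL-6, IL-7 and IL-12 groups have no enzyme of their own. Ligand binding brings a pair of chains together, the JAK kinases bound to them phosphorylate STAT factors, and these enter the nucleus. In CD4 T cells IL-6, IL-21 and IL-27 act through STAT3, IL-7 through STAT5, IL-4 through STAT6 and IL-12 through STAT4. IL-17 receptors work differently, through the adaptor Act1 (gene Traf3ip2), TRAF proteins and NF-kappaB. Resting naive and memory T cells carry IL-7 receptor for survival, whereas Treg cells are known for low surface IL-7 receptor.

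Values are log2 expression made by the authors with RMA, so 1 unit is a doubling. Array medians lay between 5.47 and 5.49, and the 2 pools of a group correlated with r of at least 0.9968 across probe sets. All 12 annotated T cell identity genes read above the filter level in every group. Foxp3 itself, which should separate ex-iTreg from the others, averaged at most 4.17 in each group, below the filter level, and so gave no check of the sort. Il2ra, a Treg cell marker, averaged 6.77 in ex-iTreg, 9.95 in iTreg and 10.02 in nTreg arrays. All 8 tested Treg cell markers fell in ex-iTreg arrays against either group. Of all tested genes, 21% fell against iTreg and 19% against nTreg arrays.

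Most of the receptor genes differed between populations, without a shared direction. Represented by the probe set with the highest mean, 3 of the 9 testable genes (Il7r, Il17ra, Il17re) read highest in ex-iTreg arrays, 5 (Il6ra, Il6st, Il27ra, Il4ra, Il12rb1) in iTreg arrays and 1 (Il21r) in nTreg arrays. Over all 11019 tested genes these shares were 36.1%, 35.5% and 28.3%. In ex-iTreg against iTreg arrays, 4 of 9 genes rose and 4 fell by limma's test at an adjusted p under 0.05, where 36.6% of all tested genes were called, 15.6% higher and 21% lower. In ex-iTreg against nTreg arrays 4 rose and 3 fell, beside 37.4% of all genes called, 18.4% higher and 19% lower. In iTreg against nTreg arrays 5 rose and 1 fell, beside 29.1% of all genes called, 16.4% higher and 12.7% lower. The genes' median difference was -0.22, 0.05 and 0.27 in these comparisons, against medians over all tested genes of -0.02, 0.03 and 0.04. Counted by probe set, 12, 12 and 9 of 19 were called, where 37%, 36.4% and 29.1% of all probe sets were; the first 2 counts include an Il17re probe set (1439357_at) that passed the filter only through the ex-iTreg arrays. The 3 comparisons share arrays and are not independent of each other. The genes were chosen with earlier results of these data known, so their counts beside these shares are descriptive only.

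**Figure D1:**
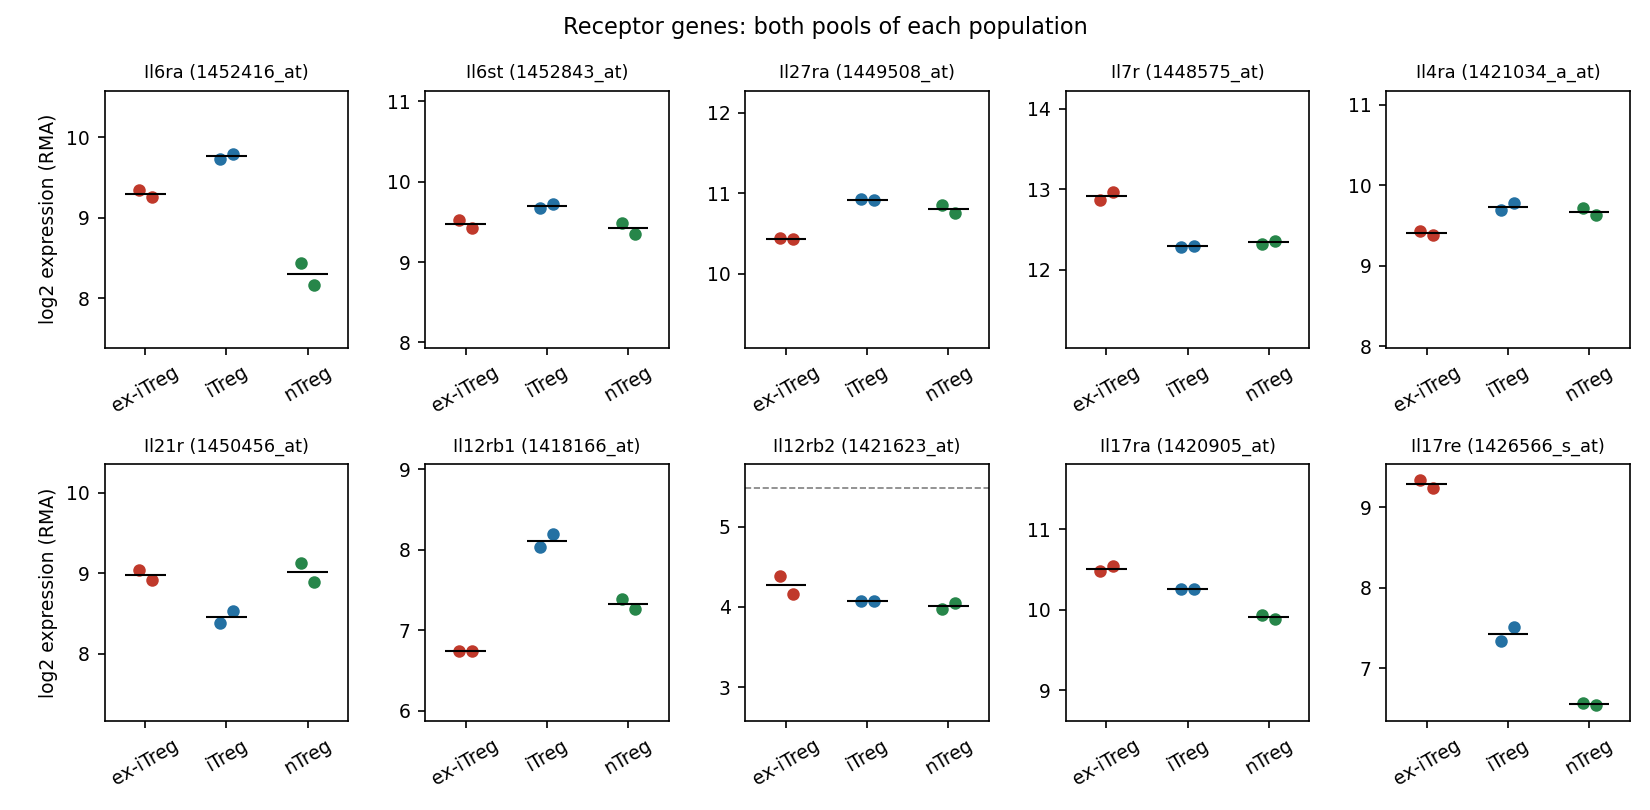
Log2 expression of each receptor gene on its brightest probe set, in ex-iTreg, iTreg and nTreg arrays. Points are the 2 pools and black lines the group mean; every panel spans the same number of log2 units, and the dashed line, within the range of the Il12rb2 panel alone, is the filter level of 5.48. Il17re falls stepwise between the populations, Il6ra and Il12rb1 peak in iTreg arrays, and Il12rb2 stays under the filter level.

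The IL-17 receptor chains Il17re and Il17ra both read highest in ex-iTreg and lowest in nTreg arrays. Il17re encodes IL-17RE, which pairs with IL-17RA to bind IL-17C. On its brightest probe set (1426566_s_at) it read 9.34 and 9.24 in ex-iTreg pools, 7.34 and 7.51 in iTreg pools, and 6.57 and 6.54 in nTreg pools. The 3 groups were fully separate, with ex-iTreg highest and nTreg lowest. Il17re was 3.65-fold higher in ex-iTreg than in iTreg arrays (1.87 ± 0.08 on the log2 scale, SE, n = 2 per group; adjusted p = 3.97e-05, limma). It was 6.69-fold higher in ex-iTreg than in nTreg arrays (2.74 ± 0.08, adjusted p = 4.57e-06) and 1.84-fold higher in iTreg than in nTreg arrays (0.88 ± 0.08, adjusted p = 0.000954, limma).

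The other Il17re probe sets also read highest in ex-iTreg arrays. Probe set 1439357_at read 6.36 and 6.23 in ex-iTreg pools, against 5.04 and 5.00 in iTreg pools and 4.77 and 4.88 in nTreg pools. It passed the filter only through the ex-iTreg arrays, and its iTreg and nTreg readings lie under the filter level, so the size of its increases is not resolved. Probe set 1452109_at, designed on the same sequence record as the brightest one, read 7.92 and 7.85 in ex-iTreg pools, 7.55 and 7.47 in iTreg pools and 7.18 and 7.46 in nTreg pools. Against the 6.69-fold rise of the brightest probe set over nTreg arrays, 1452109_at rose 1.48-fold in ex-iTreg arrays (0.57 ± 0.10, adjusted p = 0.00692, limma). Its increase in ex-iTreg over iTreg arrays was 0.38 ± 0.10 (adjusted p = 0.0309, limma), a call lost without iTreg pool 1 (0.0799), iTreg pool 2 (0.131), ex-iTreg pool 1 (0.137) or ex-iTreg pool 2 (0.0962). In iTreg minus nTreg, 1439357_at gave 0.20 and 1452109_at 0.19 (adjusted p = 0.107 and 0.214, limma), so that step passed only on the brightest probe set; 1452109_at was called there without nTreg pool 2 (0.0439). The suffix _s_at marks a probe set whose probes can match more than a single transcript. Across the alternative settings, which include averaging the probe sets of the gene, the ex-iTreg minus nTreg difference of Il17re ranged from 1.59 to 2.79.

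Il17ra encodes IL-17RA, the chain shared by receptors for IL-17A, IL-17F, IL-17C and IL-25. It read 10.48 and 10.54 in ex-iTreg pools, 10.25 and 10.26 in iTreg pools, and 9.93 and 9.88 in nTreg pools. The order was that of Il17re, again without overlap. The increase was 0.61 ± 0.06 in ex-iTreg over nTreg arrays, a 1.52-fold difference (adjusted p = 0.000715, limma), and its second probe set (1420904_at) rose by 0.74 ± 0.06 (adjusted p = 0.000277). In ex-iTreg over iTreg arrays the rises were 0.25 ± 0.06 and 0.50 ± 0.06 (adjusted p = 0.0233 and 0.00182, limma). The smaller of these was lost without iTreg pool 1 (0.0917), iTreg pool 2 (0.0867), ex-iTreg pool 1 (0.069) or ex-iTreg pool 2 (0.131), and the larger was kept whichever array was left out. In iTreg over nTreg arrays they were 0.35 ± 0.06 and 0.25 ± 0.06 (adjusted p = 0.00982 and 0.0292), the first lost without iTreg pool 2 (0.0543) and the second when any single array was left out (0.0617 to 0.125, limma).

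In the RefSeq gene order of the mouse assembly GRCm38.p6, Il17re lies on chromosome 6 with Il17rc as the next protein-coding gene. Il17rc encodes the chain that joins IL-17RA to bind IL-17A and IL-17F. It read 6.59 and 6.28 in ex-iTreg pools, 5.80 and 5.81 in iTreg pools, and 5.62 and 5.83 in nTreg pools, and ex-iTreg pools lay above all others. It rose by 0.63 ± 0.12 against iTreg and 0.71 ± 0.12 against nTreg arrays (adjusted p = 0.00891 and 0.00546, limma), and differed by 0.08 ± 0.12 in iTreg minus nTreg (adjusted p = 0.67). Il17a, encoding a ligand of that pair, read 9.99 and 9.96 in ex-iTreg pools, 6.08 and 6.38 in iTreg pools, and 5.45 and 5.38 in nTreg pools. IL-17RB is the chain for IL-25, and its gene Il17rb averaged 4.82 in ex-iTreg, 5.47 in iTreg and 5.87 in nTreg arrays. It fell in ex-iTreg against nTreg arrays (adjusted p = 0.00119, limma), but with the ex-iTreg mean under the filter level the size of that fall is not resolved. For Traf3ip2, encoding Act1, ex-iTreg minus iTreg was -0.04 ± 0.07 (adjusted p = 0.72, limma), and ex-iTreg minus nTreg was 0.11 ± 0.07 (0.266).

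The 300 bases around the annotated start of Il17re (250 before it and 50 after) are shown with those of Il7r, the next gene described, because both genes read highest in ex-iTreg arrays. The RefSeq-derived promoter table held 7 of the 10 genes; Il27ra, Il12rb1 and Il17ra had no entry. Bases are 5′ to 3′ on the gene's strand, and capitals mark matches, on either strand, to 5 short motifs: the STAT motif TTCNNNGAA, the ROR motif AGGTCA, the RUNX motif TGTGGT, the FOX motif GTAAACA and the ETS motif CAGGAAGT. Among 32851 promoter windows of this length, 8.3% held the STAT motif, 16.3% the ROR motif, 16.8% the RUNX motif, 3.65% the FOX motif and 3.33% the ETS motif.
Il17re, chr6:113458521-113458820, plus strand: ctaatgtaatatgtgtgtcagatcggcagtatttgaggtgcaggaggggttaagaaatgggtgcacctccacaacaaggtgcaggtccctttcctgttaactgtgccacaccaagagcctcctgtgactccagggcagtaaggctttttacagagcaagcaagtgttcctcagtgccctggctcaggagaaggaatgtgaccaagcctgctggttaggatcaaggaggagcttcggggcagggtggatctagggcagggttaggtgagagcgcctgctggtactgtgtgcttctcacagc
Il7r, chr15:9529827-9530126, minus strand: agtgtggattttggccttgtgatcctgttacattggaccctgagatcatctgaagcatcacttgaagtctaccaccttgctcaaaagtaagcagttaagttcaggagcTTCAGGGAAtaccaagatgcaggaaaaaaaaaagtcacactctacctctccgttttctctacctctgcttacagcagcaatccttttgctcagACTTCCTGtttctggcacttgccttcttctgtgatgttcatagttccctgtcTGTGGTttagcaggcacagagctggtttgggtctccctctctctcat
None of the 5 motifs occurred in the Il17re window, which says only that these letters are not in it. The Il7r window held the STAT, ETS and RUNX motifs, each once and without overlap. A match is a description of the letters and not a binding site.

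Il7r encodes the IL-7 receptor alpha chain, which pairs with the common gamma chain. It read 12.87 and 12.97 in ex-iTreg pools, 12.29 and 12.29 in iTreg pools, and 12.32 and 12.36 in nTreg pools. Both ex-iTreg pools lay above all 4 reporter-positive pools, while iTreg pools lay just under nTreg pools. Il7r was 1.55-fold higher in ex-iTreg than in iTreg arrays (0.63 ± 0.07, adjusted p = 0.00099, limma) and 1.50-fold higher than in nTreg arrays (0.58 ± 0.07, adjusted p = 0.00102). The difference of iTreg minus nTreg was -0.05 (95% interval -0.21 to 0.11).

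The second Il7r probe set (1448576_at) placed nTreg beside ex-iTreg arrays instead of beside iTreg arrays. It read 11.28 and 11.43 in ex-iTreg pools, 10.97 and 10.92 in iTreg pools, and 11.29 and 11.24 in nTreg pools. Its rise in ex-iTreg over iTreg arrays was 0.41 ± 0.08 (adjusted p = 0.00752, limma), a call lost without ex-iTreg pool 2 (0.0516). The ex-iTreg minus nTreg difference was 0.09 (95% interval -0.10 to 0.27, adjusted p = 0.417). It fell by 0.32 ± 0.08 in iTreg against nTreg arrays (adjusted p = 0.0227, limma), lost without nTreg pool 1 (0.078), nTreg pool 2 (0.0547), iTreg pool 1 (0.0711) or iTreg pool 2 (0.107). Both probe sets thus had Il7r higher in ex-iTreg than in iTreg arrays, and they disagreed on where nTreg stood. Crlf2, the chain that joins the IL-7 receptor alpha chain to bind TSLP, fell by 0.54 ± 0.06 in ex-iTreg against nTreg arrays (adjusted p = 0.000925, limma) and differed by -0.14 ± 0.06 in ex-iTreg minus iTreg (0.122).

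**Figure D2:**
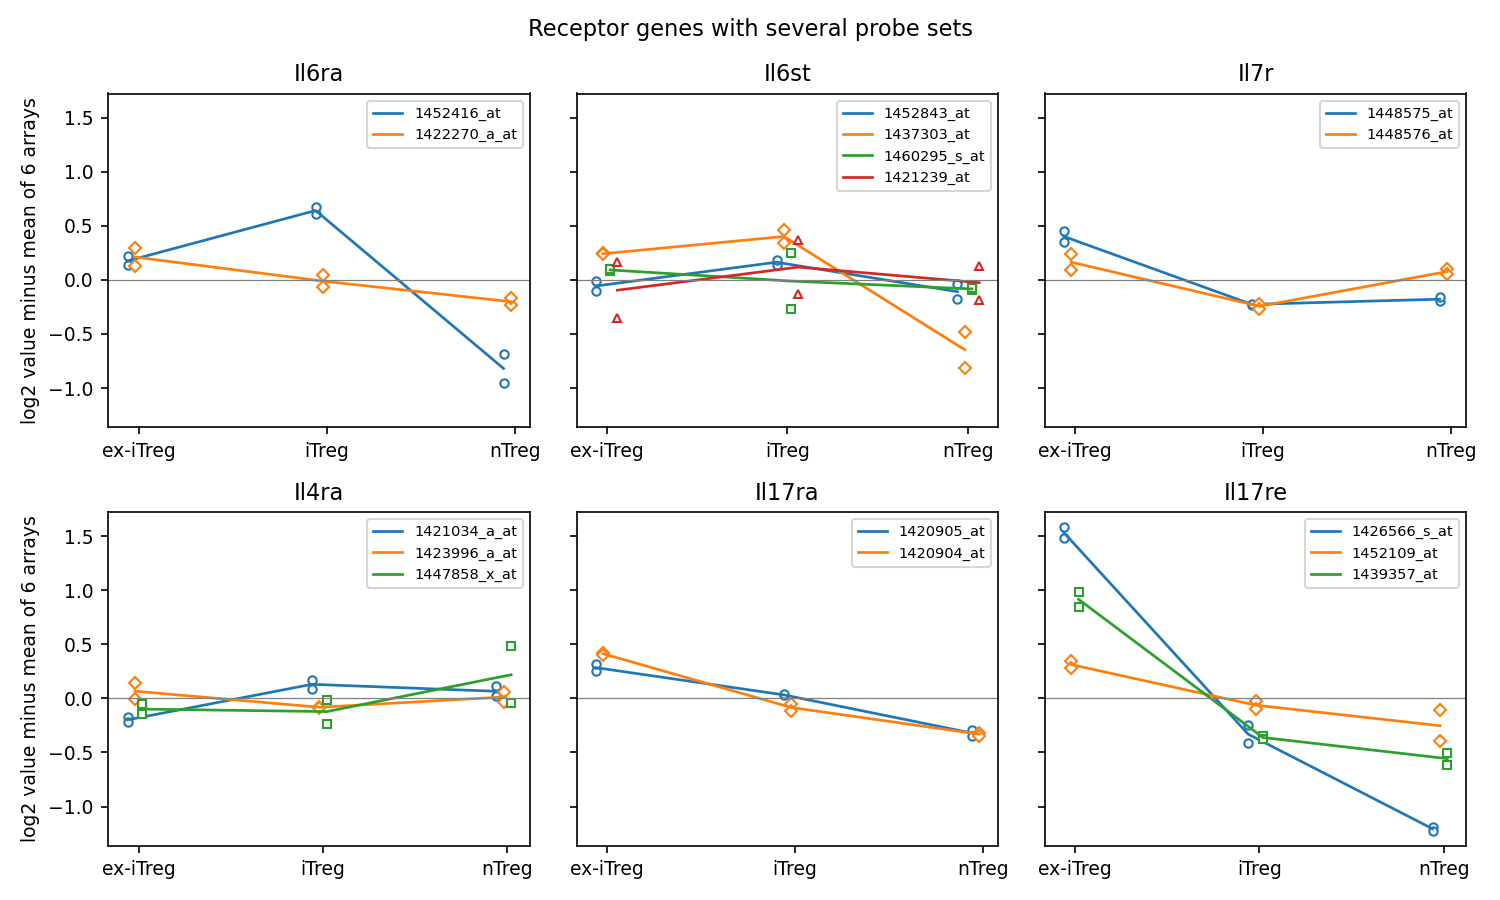
Log2 values of every probe set of the 6 genes with more than 1, each minus its own mean over the 6 arrays, in ex-iTreg, iTreg and nTreg arrays. Symbols are the 2 pools and lines join group means. Probe sets of Il17ra run together, those of Il17re are all highest in ex-iTreg arrays, and those of Il6ra, Il6st, Il7r and Il4ra part in at least one population.

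Il21r and Il4ra encode the ligand-binding chains for IL-21, made by Th17 and follicular helper cells, and for IL-4, the Th2 cytokine, each paired with the common gamma chain. They are adjacent protein-coding genes on chromosome 7. On the brightest probe set of each, readings moved in opposite directions between ex-iTreg and iTreg arrays. Il21r read 9.04 and 8.92 in ex-iTreg pools, 8.38 and 8.53 in iTreg pools, and 9.13 and 8.89 in nTreg pools. The iTreg pools were lowest, and ex-iTreg and nTreg pools overlapped. It rose by 0.52 ± 0.11 in ex-iTreg against iTreg arrays (adjusted p = 0.0103, limma), lost without iTreg pool 1 (0.0581) or ex-iTreg pool 1 (0.0662). It fell by 0.55 ± 0.11 in iTreg against nTreg arrays (adjusted p = 0.0117, limma), lost without iTreg pool 1 (0.062). The difference of ex-iTreg minus nTreg was -0.03 (95% interval -0.28 to 0.22). Its ligand gene Il21 read 8.80 and 8.91 in ex-iTreg pools and at most 4.19 in all iTreg and nTreg pools, under the filter level.

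Il4ra read 9.43 and 9.38 in ex-iTreg pools on its brightest probe set, 9.70 and 9.77 in iTreg pools, and 9.72 and 9.62 in nTreg pools. The ex-iTreg pools were lowest and the reporter-positive pools overlapped. It fell by 0.33 ± 0.07 in ex-iTreg against iTreg arrays (adjusted p = 0.0123, limma) and by 0.26 ± 0.07 against nTreg arrays (adjusted p = 0.0267). The first call was lost without iTreg pool 2 (0.0699), ex-iTreg pool 1 (0.0534) or ex-iTreg pool 2 (0.0769), and the second without nTreg pool 1 (0.0962), ex-iTreg pool 1 (0.0899) or ex-iTreg pool 2 (0.133). Probe set 1423996_a_at differed by 0.15 and 0.05 in these comparisons, and 1447858_x_at by 0.02 and -0.32, none past the threshold (adjusted p from 0.179 to 0.933, limma). With the 3 probe sets averaged, Il4ra differed by -0.05 and -0.18 (adjusted p = 0.609 and 0.104), so its lower reading in ex-iTreg arrays rests on the brightest probe set. In nTreg pool 2, 1447858_x_at read 7.16, against 6.63 in nTreg pool 1; without pool 1 its falls against nTreg were called (-0.58 in ex-iTreg and -0.61 in iTreg arrays, adjusted p = 0.0176 and 0.0227, limma). The interval of iTreg minus nTreg on the brightest probe set was -0.10 to 0.23.

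The promoter windows of these neighbours are given because the readings of their brightest probe sets parted, with capitals as above.
Il21r, chr7:125603179-125603478, plus strand: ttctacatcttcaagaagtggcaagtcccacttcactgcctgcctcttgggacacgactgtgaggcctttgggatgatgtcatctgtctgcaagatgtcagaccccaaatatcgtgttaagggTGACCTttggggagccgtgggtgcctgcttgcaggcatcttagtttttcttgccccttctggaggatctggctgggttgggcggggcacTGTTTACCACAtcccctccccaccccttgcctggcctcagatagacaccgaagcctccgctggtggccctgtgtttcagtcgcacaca
Il4ra, chr7:125552021-125552320, plus strand: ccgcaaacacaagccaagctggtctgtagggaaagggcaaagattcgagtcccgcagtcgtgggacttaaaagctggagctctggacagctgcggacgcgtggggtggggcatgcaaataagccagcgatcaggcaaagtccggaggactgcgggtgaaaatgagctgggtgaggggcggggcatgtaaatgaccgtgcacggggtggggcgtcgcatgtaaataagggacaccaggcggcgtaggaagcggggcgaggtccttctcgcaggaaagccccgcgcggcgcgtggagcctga
The Il21r window held the ROR, FOX and RUNX motifs once each, and the FOX and RUNX matches shared bases. The Il4ra window held none of the 5.

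Il6ra and Il6st encode the IL-6 receptor alpha chain and gp130, the signalling chain it shares with IL-27 and other receptors. Il6ra was lowest in nTreg arrays, and for Il6st the probe sets differed. Il6ra read 9.34 and 9.25 in ex-iTreg pools, 9.73 and 9.80 in iTreg pools, and 8.43 and 8.17 in nTreg pools on its brightest probe set. All groups were separate. Il6ra was 2.76-fold higher in iTreg than in nTreg arrays (1.46 ± 0.10, adjusted p = 0.00034, limma) and 1.99-fold higher in ex-iTreg than in nTreg arrays (1.00 ± 0.10, adjusted p = 0.000585). It fell by 0.47 ± 0.10 in ex-iTreg against iTreg arrays (adjusted p = 0.013), lost without iTreg pool 2 (0.0683) or ex-iTreg pool 2 (0.0792, limma).

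The dimmer Il6ra probe set (1422270_a_at) also read lowest in nTreg arrays but ordered the induced-origin groups the other way. It read 6.62 and 6.78 in ex-iTreg pools, 6.42 and 6.53 in iTreg pools, and 6.25 and 6.32 in nTreg pools. It rose by 0.41 ± 0.08 in ex-iTreg against nTreg arrays (adjusted p = 0.01, limma), lost without ex-iTreg pool 2 (0.0645). The differences of 0.22 in ex-iTreg minus iTreg and 0.19 in iTreg minus nTreg did not pass (adjusted p = 0.0803 and 0.135). With both probe sets averaged, ex-iTreg minus iTreg was -0.12 (adjusted p = 0.228, limma), iTreg rose over nTreg by 0.83 and ex-iTreg rose over nTreg by 0.70 (0.000725 and 0.000595). The higher Il6ra reading in both induced-origin groups than in nTreg was therefore seen on average, while the order of ex-iTreg and iTreg depended on the probe set.

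Il6st had 4 probe sets, which did not agree in size. The brightest (1452843_at) read 9.52 and 9.42 in ex-iTreg pools, 9.67 and 9.72 in iTreg pools, and 9.49 and 9.35 in nTreg pools. Its rise of 0.27 ± 0.08 in iTreg over nTreg arrays (adjusted p = 0.0418, limma) was lost without nTreg pool 2 (0.141), iTreg pool 1 (0.106), iTreg pool 2 (0.164) or either ex-iTreg pool (0.0689). Its ex-iTreg pools overlapped nTreg pools, with a difference of 0.05 (95% interval -0.13 to 0.24, adjusted p = 0.636), and ex-iTreg minus iTreg was -0.22 (95% interval -0.41 to -0.03, adjusted p = 0.0669, limma). Probe set 1437303_at read 9.17 and 9.16 in ex-iTreg pools, 9.26 and 9.38 in iTreg pools, and 8.44 and 8.11 in nTreg pools. Here nTreg pools lay far below the others, and the rises over nTreg were 0.89 ± 0.12 in ex-iTreg and 1.05 ± 0.12 in iTreg arrays (adjusted p = 0.00169 and 0.00172, limma). The 2 dimmest probe sets, with group means between 5.25 and 6.06, passed in no comparison (adjusted p from 0.423 to 0.836). One of them, 1460295_s_at, read 6.21 in iTreg pool 1 and 5.70 in iTreg pool 2, and without iTreg pool 1 its ex-iTreg minus iTreg difference of 0.36 was called (0.0303, limma). With the 4 probe sets averaged, Il6st was higher in ex-iTreg than in nTreg arrays by 0.26 (adjusted p = 0.0261, limma), so this call depended on how the probe sets were combined.

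Il27ra and Il12rb1, receptor chains whose ligands IL-27 and IL-12 favour Th1 and regulatory responses, had ex-iTreg as the lowest group. Each has a single probe set. Il12rb1 encodes the chain shared by the IL-12 and IL-23 receptors. It read 6.74 and 6.74 in ex-iTreg pools, 8.03 and 8.20 in iTreg pools, and 7.39 and 7.26 in nTreg pools. The groups were separate, with iTreg highest. Il12rb1 was 2.60-fold lower in ex-iTreg than in iTreg arrays (-1.38 ± 0.08, adjusted p = 0.000128, limma), 1.50-fold lower than in nTreg arrays (-0.59 ± 0.08, adjusted p = 0.00254) and 1.73-fold higher in iTreg than in nTreg arrays (0.79 ± 0.08, adjusted p = 0.00152).

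Il27ra encodes the IL-27 receptor alpha chain, which signals with gp130. It read 10.44 and 10.43 in ex-iTreg pools, 10.93 and 10.91 in iTreg pools, and 10.85 and 10.75 in nTreg pools. Ex-iTreg pools lay below the rest. It fell by 0.48 ± 0.07 against iTreg and by 0.37 ± 0.07 against nTreg arrays (adjusted p = 0.0025 and 0.00669, limma), and iTreg minus nTreg was 0.12 (95% interval -0.04 to 0.28, adjusted p = 0.231). No call on Il12rb1 or Il27ra was lost by leaving out any single array.

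Il12rb2, the signalling chain that IL-12 needs and Th1 cells carry, read 4.38 and 4.16 in ex-iTreg pools, 4.08 and 4.08 in iTreg pools, and 3.97 and 4.05 in nTreg pools. All 6 readings lay under the filter level and the probe set was not tested. Il23r, its neighbour on chromosome 6, and Il2rg, the common gamma chain, had no probe set annotated to them alone and are not analysed here. Tbx21, encoding T-bet, which drives Il12rb2 in Th1 cells, differed by 0.46 ± 0.09 in ex-iTreg minus iTreg arrays (adjusted p = 0.0104, limma), a call lost without iTreg pool 1 (0.0535) or ex-iTreg pool 2 (0.0672).

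**Figure D3:**
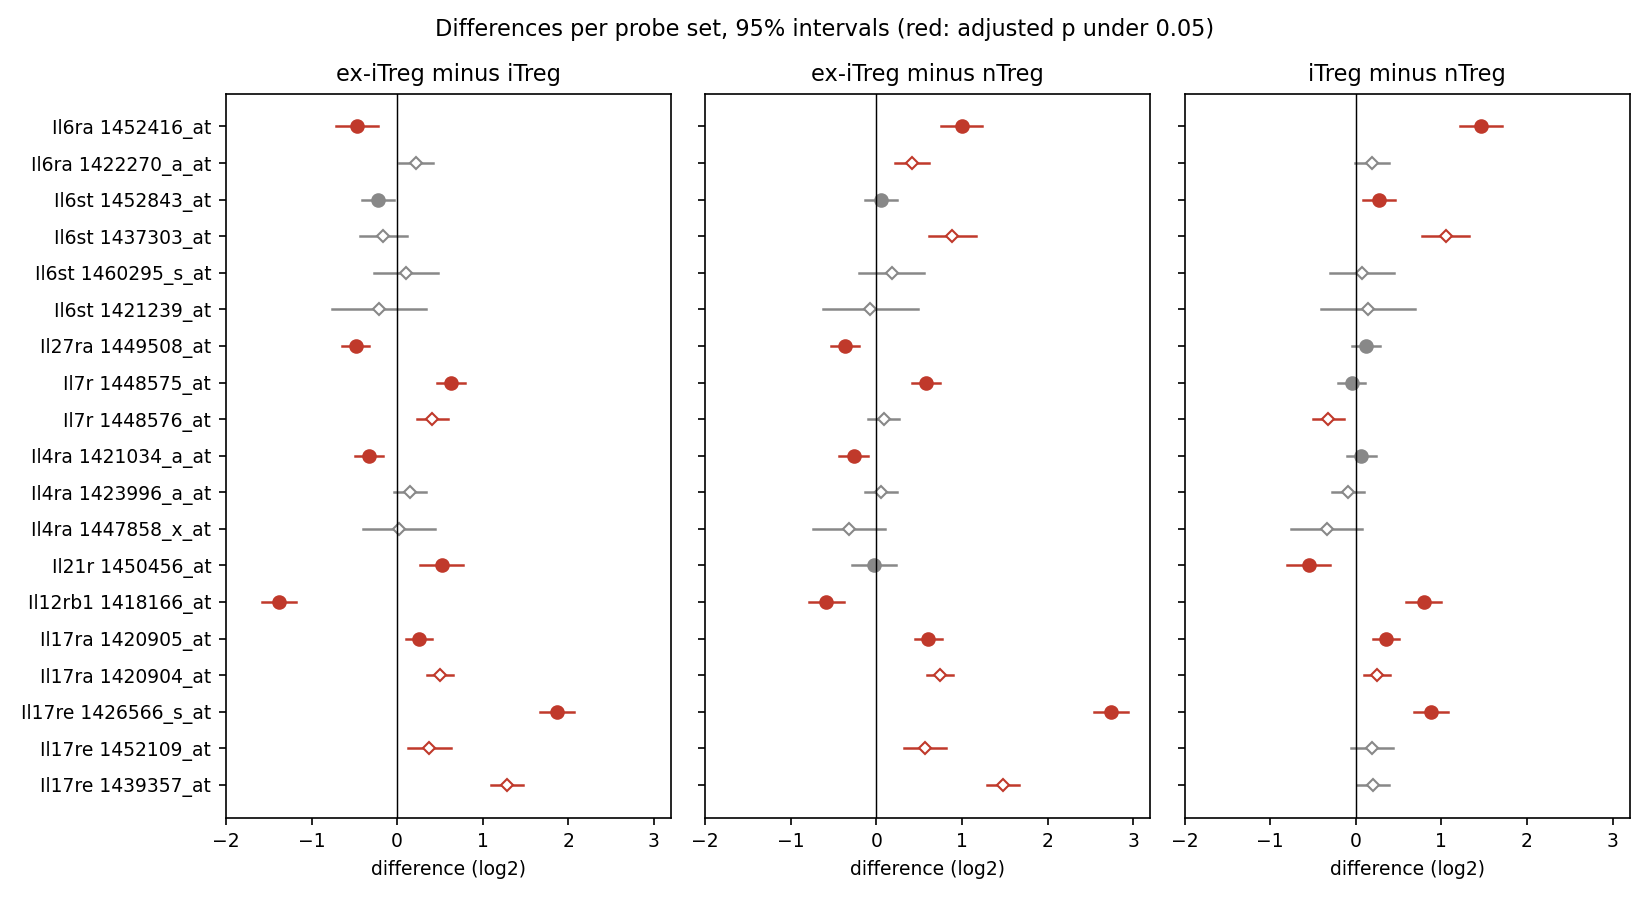
Differences in log2 expression for the 19 tested probe sets, as ex-iTreg minus iTreg, ex-iTreg minus nTreg and iTreg minus nTreg. Filled circles are the brightest probe set of a gene, open diamonds its other probe sets, bars 95% intervals from limma, and red marks an adjusted p under 0.05. Il17re has the highest values, at 1.87 and 2.74 in the 2 ex-iTreg comparisons, and Il12rb1 the lowest, at -1.38.

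Markers of other cell types moved with some of these readings. Beside the marker counts below, 16.4% of all tested genes rose and 12.7% fell in iTreg against nTreg arrays. These shares were 15.6% and 21% in ex-iTreg against iTreg arrays, and 18.4% and 19% in ex-iTreg against nTreg arrays. Il6ra, Il4ra and Il17ra are also made by myeloid cells, which the hosts keep. Of 17 tested myeloid markers, 12 rose and 1 fell in iTreg against nTreg arrays, 0 rose and 15 fell in ex-iTreg against iTreg arrays, and 6 rose and 2 fell in ex-iTreg against nTreg arrays. Their summed linear level over 18 annotated genes lay between 15077 and 15170 in ex-iTreg, 20836 and 21518 in iTreg, and 17788 and 18103 in nTreg arrays, and Itgam alone was under the filter level in each group. That sum is carried by the brightest markers. The 6 that rose in ex-iTreg against nTreg arrays, Csf1r, Adgre1, C1qa, C1qb, Cd68 and Fcgr3, also fell in ex-iTreg against iTreg arrays and rose in iTreg against nTreg arrays, the order of Il6ra on its brightest probe set. C1qa, for a complement component that macrophages make, averaged 7.92 in ex-iTreg, 8.92 in iTreg and 7.28 in nTreg arrays. The mean log2 level over the list was 8.32 to 8.35 in ex-iTreg, 8.93 to 8.95 in iTreg and 8.20 to 8.26 in nTreg arrays. On their brightest probe sets, Il6st, Il27ra, Il4ra and Il12rb1 were also highest in iTreg arrays. The summed level of 9 CD8 T and NK cell markers was 2173 to 2228 in ex-iTreg, 860 to 887 in iTreg and 977 to 1024 in nTreg arrays, with 7, 6 and 5 of the 9 above the filter level and Ncr1 under it in each group. Of 8 tested, 6 rose and 2 fell in ex-iTreg against iTreg arrays, and 6 rose and 1 fell against nTreg arrays. Klrk1 and Klrc1 among these rises passed the filter only through ex-iTreg arrays. Cd8b1, for a CD8 chain, fell in both comparisons and averaged 5.27 in ex-iTreg, 6.02 in iTreg and 7.11 in nTreg arrays. With its ex-iTreg mean under the filter level, the size of its falls is not resolved. Cd8a averaged 6.14, 5.81 and 6.14 in these groups. Il7r and Il17re, like the summed level, were highest in ex-iTreg arrays. All 3 tested erythroid markers rose in iTreg against nTreg arrays and fell in ex-iTreg against iTreg arrays, where Il12rb1, Il27ra, Il4ra and Il6ra fell on their brightest probe sets. B cell markers fell in 4 of 5 tested cases in ex-iTreg against iTreg arrays and in 3 of 5 against nTreg arrays, with Cd79a, Pax5, Ebf1 and Blk under the filter level in each group and Ms4a1 above it in nTreg arrays alone. Whether these markers came from other cell types, and the part of such cells in the receptor readings, was not tested.

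Controls for RNA handling moved as well. The 3′ minus 5′ difference of the Gapdh control was -0.0004 and -0.04 in ex-iTreg pools, 0.38 and 0.51 in iTreg pools, and 0.15 and 0.15 in nTreg pools. The median of 12 poly-A control probe sets, which report RNA spiked in before labelling, was 9.32 and 9.39 in ex-iTreg pools, 12.41 and 12.46 in iTreg pools, and 10.77 and 10.85 in nTreg pools. Their part in the higher iTreg readings, and in the parting of probe sets of a gene, was not tested.

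Other cytokine receptor chains were listed too, among them Il10ra and Il10rb of the IL-10 receptor, which is outside the families above. Of 9 tested, 1 rose and 7 fell in ex-iTreg against nTreg arrays, where 18.4% of all tested genes rose and 19% fell. Their median was -0.63, against 0.03 over all tested genes, and the falls include Il13ra1 and Il17rb, which end under the filter level. In ex-iTreg against iTreg arrays 1 rose and 6 fell (median -0.65), beside 15.6% and 21% of all genes. In iTreg against nTreg arrays 0 rose and 3 fell (median -0.06), beside 16.4% and 12.7%. Il17rc was the chain that rose in both ex-iTreg comparisons. Il10ra, the IL-10 receptor alpha chain, fell by 2.17 ± 0.08 in ex-iTreg against nTreg arrays and by 1.50 ± 0.08 against iTreg arrays (adjusted p = 1.21e-05 and 9.78e-05, limma). Il2rb, the chain shared by IL-2 and IL-15, fell by 1.15 ± 0.09 and by 1.16 ± 0.09 (adjusted p = 0.000186 and 0.000289, limma). Il13ra1, which joins the IL-4 receptor alpha chain in a receptor shared by IL-4 and IL-13, averaged 3.74 in ex-iTreg, 4.30 in iTreg and 5.58 in nTreg arrays. It passed the filter only through nTreg arrays, so the size of its falls is not resolved. Il15ra fell by 0.63 ± 0.12 against nTreg arrays (adjusted p = 0.00892, limma), lost without ex-iTreg pool 2 (0.0598).

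**Figure D4:**
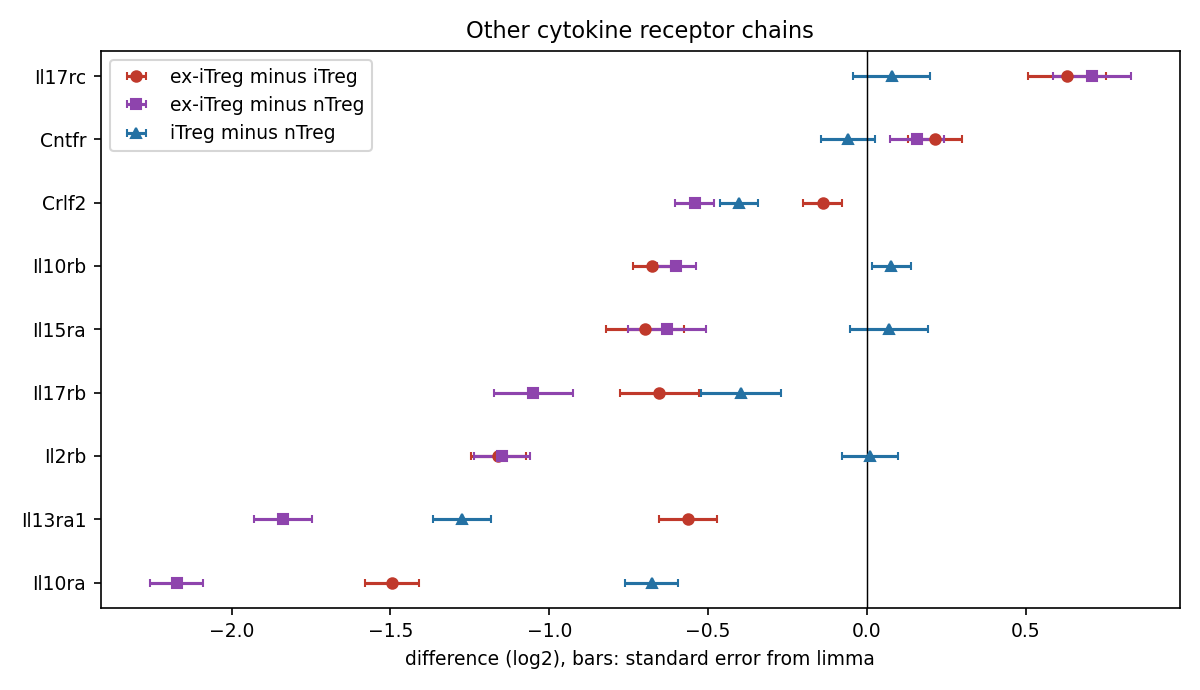
Differences in log2 expression of 9 other cytokine receptor chains, one row per gene, as ex-iTreg minus iTreg, ex-iTreg minus nTreg and iTreg minus nTreg. Points are differences of group means and bars the standard error from limma (n = 2 arrays per group). Il13ra1 and Il17rb have group means under the filter level, so the sizes of their differences are not resolved. Il17rc sits right of 0 in both ex-iTreg comparisons, and Il10ra lies farthest to the left, at -2.17 and -1.50.

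Ligand genes were mostly under the filter level in these T cells. Of 16 annotated ligands 6 were tested; Il6, Il7, Il12a, Il12b and Il23a were among those that were not. In ex-iTreg against iTreg arrays 2 passed as higher, Il21 and Il17a, and 2 as lower, Ebi3 and Osm, beside 36.6% of all tested genes called. Il21 passed the filter only through ex-iTreg arrays, so the size of its difference is not resolved. Il17a rose by 3.75 ± 0.10 (adjusted p = 9.42e-06, limma). Ebi3 fell by 2.34 ± 0.10 and Osm fell by 0.76 ± 0.07 (adjusted p = 4.06e-05 and 0.000483, limma). Ebi3 encodes the subunit shared by IL-27 and IL-35, and Osm oncostatin M, a ligand of the gp130 family.

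Among JAK, STAT and adaptor genes, 1 of 13 rose and 5 fell in ex-iTreg against iTreg arrays, 1 rose and 6 fell in ex-iTreg against nTreg arrays, and 3 rose and 5 fell in iTreg against nTreg arrays. Their medians were -0.16, -0.22 and -0.08, and the 6, 7 and 8 called stand beside 36.6%, 37.4% and 29.1% of all tested genes. Stat3, for the factor downstream of IL-6 and IL-21, fell by 0.44 ± 0.07 in ex-iTreg against iTreg and by 0.62 ± 0.07 against nTreg arrays (adjusted p = 0.00404 and 0.000801, limma). Stat6, downstream of IL-4, fell by 0.58 ± 0.07 in ex-iTreg against iTreg arrays (0.00171), as Il4ra did on its brightest probe set. Jak2, a kinase used by gp130 and IL-12 receptors, rose by 0.60 ± 0.07 in ex-iTreg against iTreg arrays (0.00118, limma). It fell by 0.80 ± 0.07 in iTreg against nTreg arrays (0.000657, limma). Il21r moved in the same directions and Il12rb1 in the opposite ones, and a link was not tested. Stat5b, downstream of IL-7 and IL-2, fell by 0.41 ± 0.06 in ex-iTreg against nTreg arrays (0.00361, limma). Stat5a fell there by 0.27 ± 0.08 (0.0463, limma), a call lost when any single array was left out. Stat5b and Stat5a each have 1 other tested probe set, which was not called in this comparison. Stat4, downstream of IL-12, differed by 0.32 ± 0.07 in ex-iTreg minus nTreg (0.0158), lost without nTreg pool 2 or ex-iTreg pool 1 (up to 0.0993, limma).

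Of 12 feedback and shedding genes, 2 rose and 5 fell in ex-iTreg against nTreg arrays (median -0.30), where 18.4% of all tested genes rose and 19% fell. In ex-iTreg against iTreg arrays 2 rose and 4 fell (median -0.14), beside 15.6% and 21% of all genes, and in iTreg against nTreg arrays 1 rose and 4 fell (median -0.08), beside 16.4% and 12.7%. Cish and Socs2, feedback inhibitors induced through STAT5, fell by 1.71 ± 0.07 and by 1.28 ± 0.07 in ex-iTreg against nTreg arrays (adjusted p = 1.16e-05 and 4.87e-05, limma), while Il7r read higher there on its brightest probe set. For Socs3, the inhibitor that binds gp130, ex-iTreg minus iTreg was -0.08 ± 0.07 on its brightest probe set and ex-iTreg minus nTreg was 0.11 ± 0.07 (adjusted p = 0.411 and 0.237, limma). Of 2 other tested Socs3 probe sets, 1 was called lower in ex-iTreg against iTreg arrays and 0 were called in ex-iTreg against nTreg arrays. Adam17, the protease that sheds IL-6 receptor alpha from the surface, fell by 0.72 ± 0.06 in ex-iTreg and by 0.57 ± 0.06 in iTreg arrays against nTreg arrays (0.000361 and 0.00186, limma), the comparisons in which Il6ra rose.

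Transcription factors known to act on these receptor genes, or on the helper programmes that carry them, moved both ways. Of 17, 7 rose and 6 fell in ex-iTreg against nTreg arrays (median -0.01), 5 rose and 5 fell against iTreg arrays (median -0.05), and 4 rose and 5 fell in iTreg against nTreg arrays (median -0.08), beside 37.4%, 36.6% and 29.1% of all tested genes called. Prdm1, encoding Blimp-1, (-2.90 ± 0.07) and Gata3, the Th2 regulator (-1.10 ± 0.08), fell in ex-iTreg against nTreg arrays (adjusted p = 2.36e-06 and 0.000138, limma). Klf2, a quiescence factor, rose by 0.69 ± 0.07 and Bcl6, the follicular helper regulator, by 0.80 ± 0.07 (0.000733 and 0.000294). Foxo1, which drives Il7r in naive T cells, fell by 0.62 ± 0.08 in ex-iTreg against nTreg arrays (0.00145) in the comparison in which Il7r rose on its brightest probe set. Rora, a Th17 factor, rose by 0.53 ± 0.06 in ex-iTreg against iTreg arrays and fell by 0.66 ± 0.06 against nTreg arrays (0.00143 and 0.000473, limma).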

How the data were processed

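The 6 Affymetrix Mouse430_2 arrays, 2 per group, were analysed from the log2 values the authors deposited, 1 per probe set and array, made with RMA per the submitters' processing notes; their software, version and build are not named there. Of 45037 non-control probe sets the platform annotation gave 34945 a single symbol, 932 several and 9160 none; all 10 receptor genes matched RefSeq by Entrez identifier. The 23484 probe sets that read over the overall median on 2 or more arrays entered limma (version 3.58.1, R 4.3.3, functions lmFit and eBayes) with 1 mean per group, 3 residual and 3.37 prior degrees of freedom, and Benjamini-Hochberg adjustment over all of them (threshold 0.05). An exact test of 2 against 2 arrays cannot go below 0.333. On simulated data the test recovered 46.3%, 56.7% and 43.3% of 1.5-fold and 77.6%, 83.6% and 82.1% of 2-fold changes in iTreg minus nTreg, ex-iTreg minus iTreg and ex-iTreg minus nTreg. The simulation held 67 changed probe sets at each of these folds and gave 152, 157 and 154 calls. The data gave 6826, 8694 and 8558. Because the adjustment depends on how many probe sets change, these rates need not hold for the data. The brightest probe set represents a gene. From the other lists, up to 6 called genes per list were named, not always those with the largest differences, plus a set always named. Traf3ip2, Foxo1 and Crlf2 were added after their values were seen. Genes left unnamed in ex-iTreg minus nTreg, though larger than some named, included Socs5 (-1.16), Nfkbiz (-1.10) and Socs1 (-1.01). Runx1 (1.15) was another, with a further probe set called the other way. Genes, lists and tests were chosen with earlier results of these data known. The number of arrays limits precision. The alternatives were 2 filters, 2 normalizations, a trended robust variance, 2-group fits, a replicate block, leaving out each array and averaging a gene's probe sets.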

Additional observations from a re-analysis of the deposited data

How the results depend on the processing

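The 57 receptor results (19 probe sets in 3 comparisons) gave 753 values under the alternatives. Of these, 696 stayed on their side of the threshold, 50 lost and 7 gained a call, and 0 reversed a call; most losses (37) came from leaving out an array. Among 2217 values of the pathway genes, 120 lost and 49 gained a call and 0 reversed. Without single arrays, the receptor probe sets called numbered 5 to 8 in iTreg minus nTreg (9 with all arrays), 7 to 12 in ex-iTreg minus iTreg (12) and 10 to 12 in ex-iTreg minus nTreg (12). All probe sets called numbered 3420 to 5380 (6826), 4971 to 9104 (8694) and 5243 to 7928 (8558). The lowest of the all-probe-set counts came without iTreg pool 2, ex-iTreg pool 2 and ex-iTreg pool 1, and the lowest receptor counts without either iTreg pool, ex-iTreg pool 2 and ex-iTreg pool 2. The lone array of a group was then assumed to vary like the others. Pools with the same number did not deviate together (r = -0.007, -0.04 and -0.088 across probe sets). With 2 pools per group this cannot tell whether pools of the same number shared mice or a sort. With the replicate block 5853, 8011 and 7814 probe sets were called, and 7, 12 and 12 receptor probe sets. Il6st and Il17ra each lost a call there in iTreg minus nTreg. No setting other than leaving out an array moved a count by over 1.5 times. Signal over background limits Il12rb2, the dimmest Il6st and Il17re probe sets, and Il21.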

Other observations

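The genes whose pattern over the 6 arrays lay nearest to a receptor's are given as a description, with the Euclidean distance in log2 units between array values centred on each gene's own mean, over 11010 other genes. With 6 arrays in 3 groups many genes follow any given pattern. Il17re lay nearest to Vipr1, a receptor for vasoactive intestinal peptide (distance 0.20), and Tnfsf8, which encodes CD30 ligand (0.32). Tnfsf8 averaged 11.1 in ex-iTreg, 9.06 in iTreg and 8.42 in nTreg arrays. Il6ra lay nearest to Treml2 (0.16), which averaged 8.73, 9.26 and 7.72, and Cpne4 (0.21). Il7r lay nearest to Ftsj3 (0.07) and Rictor, a subunit of the mTORC2 kinase complex (0.08), and Il27ra to Notch1, a developmental receptor (0.02). Il12rb1 lay nearest to Xdh, xanthine dehydrogenase (0.24), and Mmp9, a matrix protease of neutrophils and macrophages (0.26). Il21r lay nearest to Hdac8 (0.06), Il4ra to Traf3ip3 (0.04), Il6st to Smim11 (0.04) and Il17ra to Lap3 (0.06) and Tsc22d3, a glucocorticoid-induced gene (0.08).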
